A study of Mus musculus with 60 samples.

Results

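Trp53, the mouse gene for p53, and 9 of its known target genes (Mdm2, Cdkn1a, Ccng1, Phlda3, Zmat3, Trp53inp1, Eda2r, Aen and Sesn1) were followed through the activation of CD8 T cells. They were taken as the rows whose Ensembl identifier carries one of these names, 10 genes of 55414 in the table. All 10 groups of the study were used. OT-I CD8 T cells carry a transgenic receptor for an ovalbumin peptide. Naive OT-I cells were isolated by negative selection from spleens of NOD mice that were wild type or Sh2b3 -/-, here called knockout. Sh2b3 encodes LNK, an adaptor protein that restrains cytokine receptor and JAK signalling. Cells were taken unstimulated (0 h, 11 libraries of each genotype) or after 2, 6 or 24 h (5 libraries each) on plate-bound anti-CD3 at 10 µg/mL with soluble anti-CD28 at 5 µg/mL. A further 4 libraries of each genotype came from 24 h of the same stimulation with a blocking antibody to IL-2 at 10 µg/mL. All groups share the NOD strain and the OT-I receptor. The 60 libraries are bulk mRNA sequencing, so fewer cells with a transcript and less of it per cell cannot be told apart. The labels do not tell if the replicates are separate mice or cultures, and p-values measure the spread between libraries, which may be technical.

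p53 is a transcription factor that cells keep scarce by constant degradation: Mdm2, an E3 ubiquitin ligase and itself a p53 target, marks it for the proteasome. When stress signals such as DNA damage, nucleotide shortage or disturbed ribosome assembly block Mdm2, p53 accumulates and activates genes that halt the cell cycle, repair DNA, tune metabolism or start apoptosis. In T cells, antigen receptor signalling drives fast growth and division, and p53 and its targets are known to restrain that expansion. Because p53 is controlled mostly as a protein, the level of its own transcript says little about its activity, and the target transcripts are the usual readout.

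Total counts per library ran from 13987029 to 35476519. The levels below are CPM, read counts normalised to library size with TMM factors over all 60 libraries. Sh2b3 stood at 64.7 to 171 CPM in wild-type libraries and at 7.57 to 31.4 CPM in knockout libraries, with no overlap. The 8 CD8 T cell markers summed to 2905 to 7960 CPM, against at most 68.8 CPM for 7 B cell markers, 18.4 CPM for 7 monocyte and macrophage markers, 3.73 CPM for 6 neutrophil markers, 21.997 CPM for 6 dendritic cell markers, 48.8 CPM for 5 NK cell markers, 26.003 CPM for 4 CD4 and regulatory T cell markers and 155 CPM for 6 erythroid markers. No gene of these lists was at 0 in every library, but Cd4, Foxp3, Csf1r, Ncr1 and Ly6g were among those that averaged under 1 CPM. By the library numbers in the labels the samples form 4 sets. Set A holds the 2 h and 6 h libraries with 5 unstimulated libraries of each genotype, sets B and C hold the 24 h libraries with their own unstimulated ones, and set D holds all anti-IL-2 libraries, so that anti-IL-2 and set cannot be told apart. The knockout libraries numbered 8, 18 and 28, 1 each at 0, 2 and 6 h, stood apart from their groups for several of the genes below and are treated separately where they matter. Their CD4 and regulatory T cell markers summed to 23.2, 26.003 and 16.3 CPM, each above every other library of its group. Their 18 genes of G2 and M phase summed to 55.7, 43.2 and 50.5 CPM, each below every other library of its group. Libraries 18 and 28 were also above the rest of their groups in heat shock and handling genes (491 and 653 CPM), dendritic cell markers (21.997 and 21.3 CPM) and monocyte and macrophage markers (5.91 and 5.49 CPM). Both were below the rest of their groups in CD8 T cell markers (4223 and 3634 CPM), NK cell markers (12.97 and 19.88 CPM) and genes of S phase (732 and 695 CPM). The part of these differences in the results was not tested.

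Trp53 itself was abundant in naive cells and peaked early. Unstimulated wild-type libraries ranged from 208 to 296 CPM around a median of 248 CPM. The 5 wild-type libraries at 2 h gave 322, 339, 350, 358 and 374 CPM, all above every unstimulated library, and those at 6 h gave 229, 229, 236, 239 and 244 CPM, inside the unstimulated range. The rise at 2 h was 0.65 ± 0.07 on the log2 scale (SE; edgeR quasi-likelihood test, Benjamini-Hochberg adjusted p = 3.7e-10), and the fall from 2 h to 6 h was -0.53 ± 0.07 (adjusted p = 1.0e-07). Knockout cells gave 314, 331, 335, 357 and 364 CPM at 2 h and rose by 0.69 ± 0.08 (adjusted p = 2.7e-08), then fell by 0.50 between 2 h and 6 h (adjusted p = 1.7e-05). At 6 h and 24 h neither genotype passed the test against 0 h with all libraries. Within set A alone, which holds every 6 h library, Trp53 was higher at 6 h than at 0 h by 0.14 in wild type (adjusted p = 0.046) and 0.19 in knockout (adjusted p = 0.019). In the order of levels, the 2 h groups of both genotypes came first, with no overlap with the third, and the other 8 groups, from 223 to 259 CPM on average, each overlapped their neighbour in that order.

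Mdm2, the main negative regulator of p53 and one of its best known targets, did not pass the test at 2 h or 6 h in wild type. Unstimulated wild-type libraries ran from 107 to 144 CPM with a median of 116 CPM, and the 2 h libraries gave 122, 127, 128, 130 and 131.3 CPM, within that range (0.14 ± 0.10, adjusted p = 0.23). The unstimulated wild-type libraries of set A, which holds every 2 h library, ran from 107.7 to 120.7 CPM, all below the 2 h values. The 6 h libraries gave 112, 115, 115, 126 and 142 CPM (0.11, adjusted p = 0.35). In knockout cells a small rise at 2 h passed the test (0.29 ± 0.09, adjusted p = 0.011), although the groups overlapped, at 124 to 135.9 CPM against 96.2 to 134.3 CPM. The overlapping unstimulated libraries were those of set B, at 129.4 to 134.3 CPM. Those of set A, which holds every 2 h library, ran from 96.2 to 117.2 CPM, all below the 2 h values. Without a term for library set the adjusted p of the rise was 0.077. At 6 h the knockout difference was 0.21 (adjusted p = 0.067), and it passed within set A alone (0.22, adjusted p = 0.034). At 24 h Mdm2 was lower than at 0 h in both genotypes, by -0.26 ± 0.09 in wild type (adjusted p = 0.016) and -0.34 ± 0.09 in knockout (adjusted p = 0.0013). The wild-type value missed the threshold without replicate 4 (-0.18, adjusted p = 0.10) or replicate 5 (-0.20, adjusted p = 0.076) of the 24 h group, and it differed between library sets.

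Cdkn1a encodes p21, the inhibitor of cyclin-dependent kinases through which p53 halts the cell cycle. It was nearly silent in naive cells and had the highest fold over 0 h of the 9 tested genes at 2 h and at 24 h in wild type. Unstimulated wild-type libraries ran from 0.267 to 5.23 CPM with a median of 1.07 CPM, and 5 of all 60 libraries held fewer than 10 reads of the gene. Wild type reached 15.9, 17.6, 21.1, 23.6 and 26.7 CPM at 2 h, then 67.1, 70.5, 91.7, 118 and 128 CPM at 6 h, without overlap between these groups or with 0 h. At 24 h the libraries stood at 2.86, 5.53, 5.68, 8.96 and 10.5 CPM, which overlapped the unstimulated range. The log2 differences from 0 h in wild type were 3.07 ± 0.33 at 2 h (adjusted p = 2.2e-08), 5.29 ± 0.34 at 6 h (adjusted p = 3.3e-12) and 3.78 ± 0.40 at 24 h (adjusted p = 1.4e-08). The 24 h value was fitted with library set as a term, and the unstimulated libraries of sets B and C reached at most 1.49 CPM in either genotype.

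In knockout cells Cdkn1a also rose, with a wider spread. Their 5 libraries gave 6.90, 14.3, 17.1, 31.4 and 78.1 CPM at 2 h, then 29.8, 34.8, 56.4, 92.1 and 223 CPM at 6 h, so that the highest was 11.3 times the lowest at 2 h and 7.50 times at 6 h, against 1.68 and 1.91 times in wild type. The top value at both times was the library that stood apart, number 18 at 2 h and 28 at 6 h. Unstimulated library 8 was also the highest of its group, at 6.04 CPM. The labels do not state that these 3 libraries belong together. Without them the knockout means were 17.4 ± 10.3 CPM (SD, n = 4) at 2 h and 53.3 ± 28.4 CPM at 6 h. The rise over 0 h passed the test with them (3.59 ± 0.71 at 2 h, adjusted p = 0.00025; 5.21 ± 0.75 at 6 h, adjusted p = 8.6e-06; 4.06 ± 0.75 at 24 h, adjusted p = 7.4e-05) and was as large without them, at 3.602, 5.27 and 4.06. The step from 2 h to 6 h, called in wild type at 2.22 ± 0.28 (adjusted p = 1.1e-06), missed the threshold in knockout with all libraries (1.63 ± 0.62, adjusted p = 0.051) and passed without the 3 (1.67, adjusted p = 0.0059). It also passed with a block on knockout libraries whose numbers are 10 apart (1.68 ± 0.18, adjusted p = 3.4e-06).

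The Cdkn1a promoter carries a well-known p53 response element, and it is shown here because this gene gave one of the largest responses. RefSeq on GRCm38.p6 lists 2 starts for Cdkn1a, 2790 bases apart, and the sequence below is the window of 300 bases around the upstream one (chr17:29090729-29091028, plus strand, 250 bases before to 50 after the start). Capitals mark the best match to the p53 response element, taken as 2 half-sites of 10 bases with no spacer. Only positions with the consensus C and G present in both half-sites were scored, here and in all windows below. Matches that lack any of these bases were not counted. The consensus half-site reads the same on both strands, so 1 search covered both.

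Cdkn1a upstream start: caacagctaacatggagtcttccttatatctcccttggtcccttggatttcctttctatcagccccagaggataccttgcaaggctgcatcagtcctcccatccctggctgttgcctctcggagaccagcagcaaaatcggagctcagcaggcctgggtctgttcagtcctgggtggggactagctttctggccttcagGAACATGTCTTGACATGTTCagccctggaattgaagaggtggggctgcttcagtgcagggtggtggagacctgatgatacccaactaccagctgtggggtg

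This element, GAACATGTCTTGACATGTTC, differed from the consensus at 1 of 20 positions and began 51 bases before the upstream start. At most 1 mismatch was found in 22 of 32851 RefSeq promoter windows of the same length (0.067%). The window of the downstream start, which does not reach that far, had no match closer than 7 mismatches among the positions scored.

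Ccng1, which encodes cyclin G1, a p53 target that brings a phosphatase to Mdm2, was abundant in naive cells and rose in both genotypes. Unstimulated wild-type libraries ran from 82.8 to 113 CPM with a median of 95.5 CPM. Wild type gave 144, 144, 152.4, 168 and 186 CPM at 2 h, then 208, 242, 244, 279 and 284 CPM at 6 h, each group above the one before with no overlap. The differences from 0 h were 0.71 ± 0.09 (adjusted p = 3.5e-08), 1.41 ± 0.09 (adjusted p = 7.3e-15) and, at 24 h, 0.40 ± 0.09 (adjusted p = 0.00014). In knockout cells, 123, 126, 135.1, 136.3 and 139 CPM at 2 h, then 173, 182, 188, 211 and 297 CPM at 6 h were also above 0 h without overlap (0.41 ± 0.12, adjusted p = 0.0064; 1.14 ± 0.12, adjusted p = 2.7e-08), and at 24 h the difference was 0.55 ± 0.12 (adjusted p = 0.00017). The highest knockout value at 6 h was again library 28. Its promoter window is shown because it held the other member element within 1 mismatch of the consensus (chr11:40755237-40755536, minus strand).

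Ccng1: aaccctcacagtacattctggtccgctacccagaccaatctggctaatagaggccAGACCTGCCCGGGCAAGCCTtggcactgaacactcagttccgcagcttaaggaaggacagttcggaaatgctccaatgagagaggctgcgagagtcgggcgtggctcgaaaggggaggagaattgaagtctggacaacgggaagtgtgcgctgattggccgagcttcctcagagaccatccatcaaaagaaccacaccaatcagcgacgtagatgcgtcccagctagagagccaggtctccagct

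The Ccng1 element began 195 bases before the start. Among the members, 8 had a RefSeq window (11 windows in all), and Zmat3 and Trp53inp1 had none. In 3 further genes the best match had 3 mismatches, a closeness that 1.38% of all windows reach, and their elements are set beside the first pair to show how they differ.

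Cdkn1a: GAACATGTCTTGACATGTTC
Ccng1: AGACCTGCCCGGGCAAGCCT
Trp53: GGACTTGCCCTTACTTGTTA
Aen: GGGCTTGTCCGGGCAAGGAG
Sesn1: AAGCTTGTTTTTGCTGGCCT

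The Sesn1 element belongs to the second of its 2 starts, and the Aen element lies in both of its windows. In each of Trp53, Aen and Sesn1 the first 10 bases matched the half-site fully and all 3 mismatches fell in the second. Among the positions scored, the best matches in the windows of Phlda3 and Mdm2 had 5 and 9 mismatches, and 12.4% of all windows had at most 5. The Mdm2 window also held 1 exact half-site, outside that best match, and 8.36% of all windows held at least 1. A match is a likeness of letters only, and no match speaks only for these windows: the p53 elements of Mdm2 are known to lie in its first intron, outside them.

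**Figure D1:**
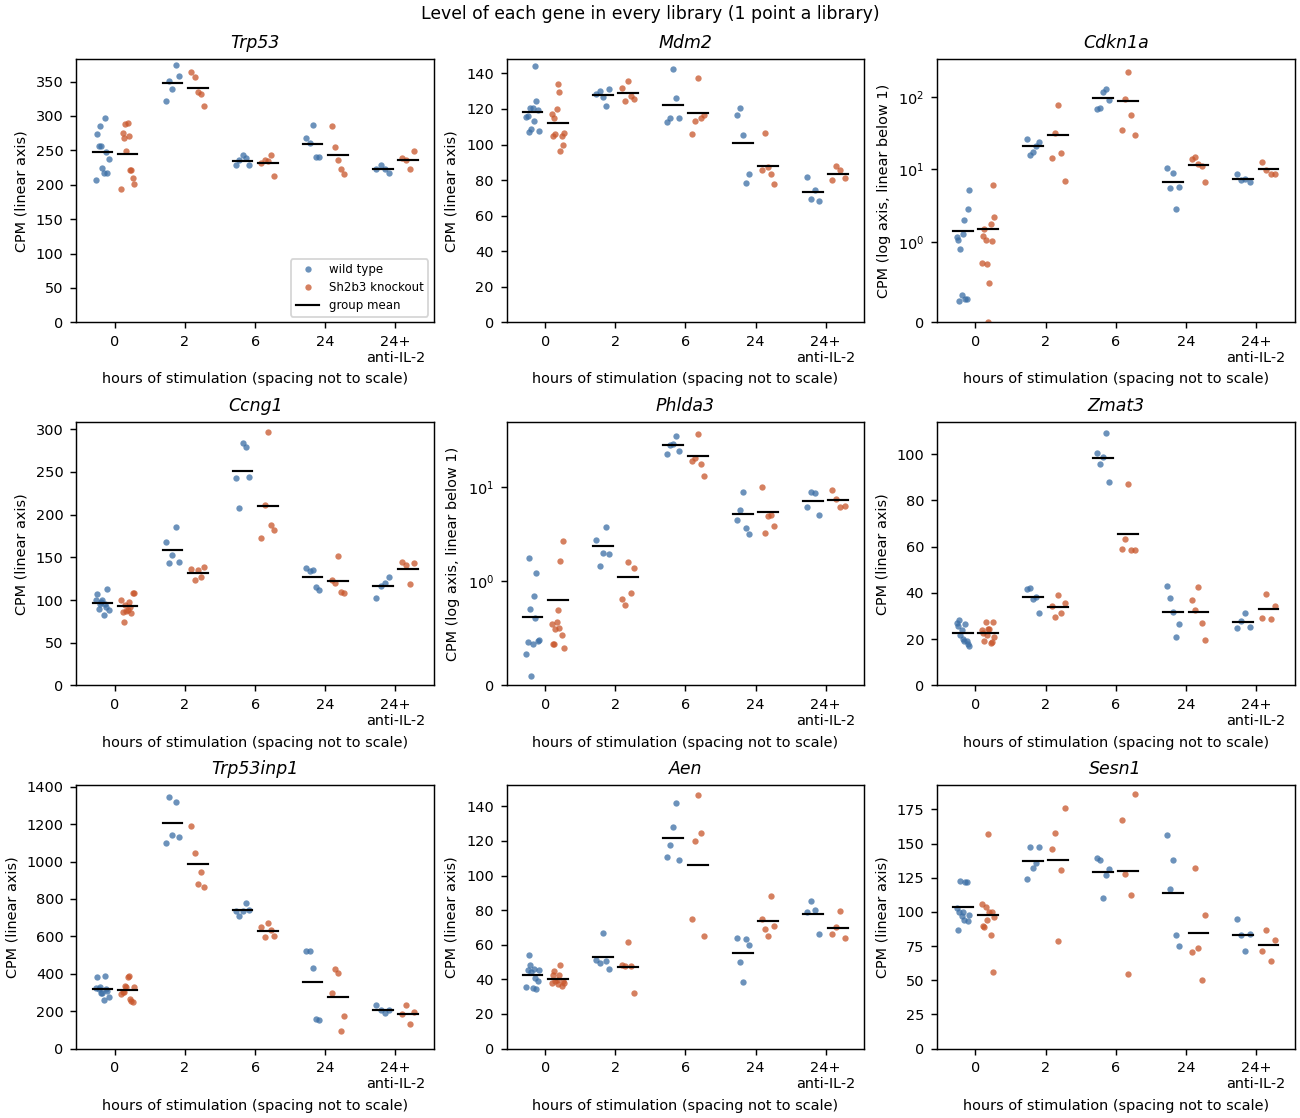
Level of 9 of the 10 genes in CPM (y axis) in each library, by hours of stimulation (x axis), with wild type in blue and knockout in orange. Each point is 1 library and each bar a group mean. Cdkn1a and Phlda3 are on a log axis that is linear below 1 CPM. Trp53 and Trp53inp1 are highest at 2 h, Cdkn1a, Ccng1, Phlda3, Zmat3 and Aen at 6 h, and Mdm2 moves little before 24 h. Eda2r, with at most 6 reads in a library, is not drawn.

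The 4 members linked to apoptosis and survival behaved in different ways. Phlda3 encodes a small pleckstrin homology protein that competes with Akt for membrane lipids and so lowers Akt activity. Unstimulated wild-type libraries were at 0.0928 to 1.74 CPM, with a median of 0.436 CPM. Wild type gave 1.46, 1.93, 1.99, 2.76 and 3.79 CPM at 2 h, overlapping 0 h, and 22.3, 24.4, 27.8, 28.7 and 35.3 CPM at 6 h, above all libraries at 0 h and 2 h. The differences from 0 h were 2.29 ± 0.44 (adjusted p = 4.5e-05), 5.86 ± 0.43 (adjusted p = 5.6e-13) and 2.74 ± 0.37 at 24 h (adjusted p = 1.4e-07). In knockout cells the 2 h libraries, at 0.768 to 1.59 CPM, did not pass the test (-0.12 ± 0.44, adjusted p = 0.84, and 0.32 without the libraries that stood apart, adjusted p = 0.58). By 6 h they stood at 12.98, 17.6, 19.1, 20.6 and 36.4 CPM (4.21 ± 0.44, adjusted p = 1.5e-08) and at 24 h the difference was 3.40 ± 0.42 (adjusted p = 6.9e-08).

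Aen encodes a nuclease that degrades DNA and RNA during apoptosis. From 34.6 to 54.3 CPM in unstimulated wild-type libraries (median 44.3 CPM), it went to 46.1, 49.3, 50.8, 51.2 and 66.6 CPM at 2 h and to 109, 111, 118, 128 and 142 CPM at 6 h, the latter without overlap. The rise at 6 h was 1.62 ± 0.13 (adjusted p = 2.4e-12). The differences at 2 h (0.38 ± 0.13, adjusted p = 0.013) and 24 h (0.31 ± 0.13, adjusted p = 0.031) in wild type each rested on single libraries: without wild-type replicate 3 at 2 h, the 66.6 CPM library, the first was 0.28 (adjusted p = 0.073), and without wild-type replicate 1, 4 or 5 at 24 h the second had adjusted p-values from 0.080 to 0.13. Knockout libraries at 6 h gave 65.2, 75.1, 120, 125 and 146 CPM (1.46 ± 0.17, adjusted p = 1.4e-07). At 24 h the knockout libraries gave 65.1, 69.2, 71.0, 75.02 and 88.3 CPM, all above the unstimulated knockout libraries (0.93 ± 0.16, adjusted p = 2.0e-05).

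Trp53inp1 encodes a nuclear stress protein that promotes p53 phosphorylation and autophagy, and it had the highest level per length of the members at 2 h and 6 h. Unstimulated wild-type libraries ran from 262 to 387 CPM with a median of 316 CPM. At 2 h they gave 1101, 1130, 1142, 1320 and 1346 CPM and at 6 h 709, 734, 738, 741 and 779 CPM, so that the maximum came at 2 h, as for Trp53, and both groups lay above 0 h. The rise was 2.04 ± 0.21 at 2 h (adjusted p = 1.4e-08) and 1.37 ± 0.20 at 6 h (adjusted p = 5.2e-06), and the step from 2 h to 6 h was -0.67 ± 0.20 (adjusted p = 0.010). Knockout libraries gave 866, 881, 943, 1048 and 1189 CPM at 2 h, then 597, 601, 632, 653 and 672 CPM at 6 h (1.81 ± 0.22, adjusted p = 2.0e-07; 1.22 ± 0.22, adjusted p = 6.3e-05). Their step from 2 h to 6 h was -0.59 ± 0.21 (adjusted p = 0.038) and -0.66 (adjusted p = 0.057) without the libraries that stood apart. It also missed the threshold without replicate 1, 2 or 4 at 2 h or without any 1 of the 5 replicates at 6 h, with adjusted p-values from 0.053 to 0.0997, and it passed within set A alone (-0.59, adjusted p = 0.00019).

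Eda2r, a receptor of the TNF receptor family for ectodysplasin A2, was hardly detected. It had at least 1 read in 4 of 60 libraries, at most 6 reads (0.379 CPM), and no library reached 10 counts, so it passed no filter and was not tested. The 4 libraries were 1 of wild type at 2 h, 2 of knockout at 6 h and 1 of knockout at 24 h with anti-IL-2. A difference between groups was not detectable at this depth.

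Zmat3, an RNA-binding zinc finger protein that regulates splicing downstream of p53, had the smallest adjusted p of all members at 6 h in wild type. Unstimulated wild-type libraries ran from 17.2 to 28.4 CPM with a median of 21.6 CPM. They gave 31.4, 37.2, 38.2, 41.6 and 42.2 CPM at 2 h, then 87.8, 95.6, 98.7, 100.6 and 109 CPM at 6 h, with no overlap at either step. The differences from 0 h were 0.90 ± 0.13 (adjusted p = 3.4e-07), 2.30 ± 0.13 (adjusted p = 2.6e-16) and 0.39 ± 0.12 at 24 h (adjusted p = 0.0059). In knockout cells they were 0.62 ± 0.16 (adjusted p = 0.0015), 1.62 ± 0.16 (adjusted p = 4.4e-09) and 0.51 ± 0.15 (adjusted p = 0.0038).

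Sesn1 encodes sestrin 1, which restrains mTORC1 when amino acids are scarce. Its response was small: 86.8 to 123 CPM at 0 h in wild type (median 99.7 CPM), then 124, 131.9, 135.7, 147 and 147 CPM at 2 h, then 110, 127, 131.6, 138.2 and 139 CPM at 6 h (0.49 ± 0.12, adjusted p = 0.0013; 0.43 ± 0.12, adjusted p = 0.0040). In knockout the libraries that stood apart were the lowest of their groups, at 56.3, 79.0 and 54.4 CPM. With them the differences were 0.64 ± 0.28 at 2 h (adjusted p = 0.069) and 0.60 ± 0.28 at 6 h (adjusted p = 0.097), and without them both passed, at 0.66 (adjusted p = 0.018) and 0.67 (adjusted p = 0.021). With all libraries of set A and the block on library numbers they passed too, at 0.62 (adjusted p = 0.00030) and 0.53 (adjusted p = 0.0014). At 24 h neither genotype passed the test (0.05 ± 0.12 in wild type and -0.23 ± 0.27 in knockout).

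Counted together in wild type, 8 of 9 tested members rose at 2 h, all but Mdm2, where 53.6% of all 14431 genes tested were called and 26.4% rose. At 6 h 7 rose (background 49% called, 24.9% higher), at 24 h 5 rose and 1 fell (background 59.4% called, 27.8% higher and 31.6% lower), and from 2 h to 6 h 5 rose and 2 fell (background 37.4% called, 18.8% higher and 18.5% lower). The median difference of the members was 0.71 at 2 h, 1.41 at 6 h and 0.31 at 24 h, against medians of -0.05, -0.01 and -0.09 over all genes. Phlda3, which missed the filter at 0 h alone, entered these counts and medians through fits that also hold the later libraries, where it was higher. Without overlap between groups, 6 members were above 0 h at 2 h and 6 at 6 h, where 19% and 15.2% of all genes were, and 1 at 24 h, where 15.7% were. In knockout 6 of 9 rose at 2 h (background 48.4% called, 23.9% higher), 6 at 6 h (42.5% called, 22.8% higher), and at 24 h 5 rose and 1 fell (60% called, 30.1% higher and 29.8% lower). From 2 h to 6 h in knockout 4 rose and 2 fell (30.8% called, 17% higher and 13.8% lower). Leaving out the 3 knockout libraries brought the counts at 2 h and 6 h to 7 each, and those from 2 h to 6 h to 5 that rose and 1 that fell. With library set as a term, the 2 h and 6 h differences rested on the unstimulated libraries of set A, and the 24 h differences on those of sets B and C. The comparisons at 2 h and 6 h share their unstimulated libraries, so they are not independent of each other. The counts without overlap used all unstimulated libraries of the genotype. Cell cycle transcripts were read beside these changes. Of 18 genes of S phase 2 rose and 1 fell, and of 18 genes of G2 and M phase none rose and 1 fell at 6 h in wild type, whereas all 18 of both lists rose at 24 h. Other lists moved at 2 h in wild type as well: 7 of 8 CD8 T cell markers, 3 of 6 tested B cell markers, 2 of 3 tested monocyte and macrophage markers and 4 of 6 heat shock and handling genes fell, and 3 of 3 tested dendritic cell markers rose. The part of these lists and of the cell cycle in the members' changes was not tested.

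**Figure D2:**
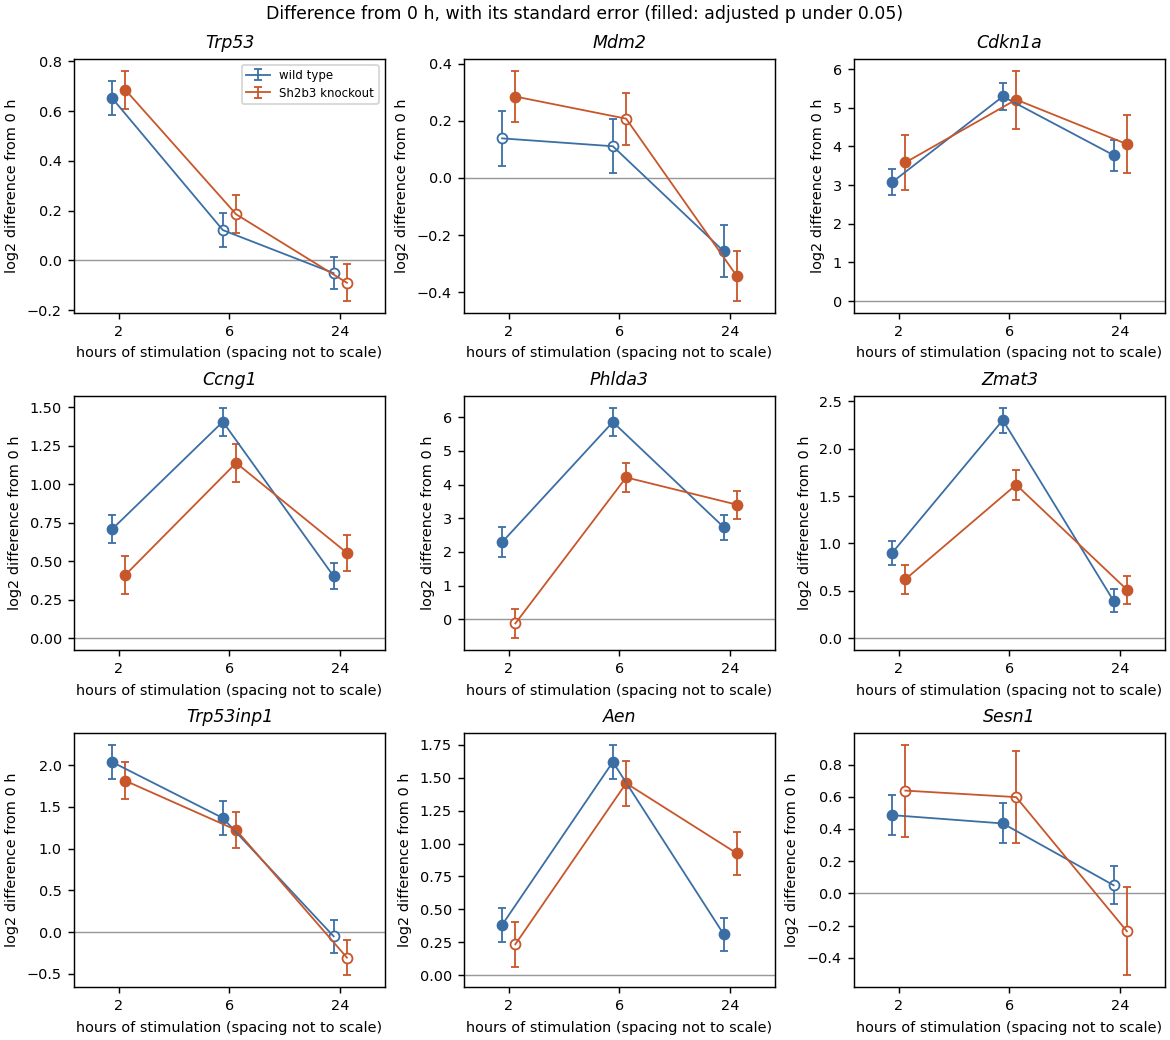
Log2 difference from 0 h (y axis) at 2, 6 and 24 h (x axis, spacing not to scale) for 9 genes, with wild type in blue and knockout in orange. Points are edgeR estimates, bars standard errors, and filled points have an adjusted p under 0.05. Cdkn1a, Ccng1, Phlda3, Zmat3 and Aen are highest at 6 h in both genotypes, while Trp53 and Trp53inp1 fall from 2 h onwards.

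At 24 h the library sets differed, most visibly for Trp53inp1, Mdm2 and Sesn1. Trp53inp1 stood at 433, 522 and 523 CPM in the 3 wild-type libraries of set C and at 151 and 159 CPM in those of set B, against 298 to 384 CPM and 318 to 387 CPM in their own unstimulated libraries. Within set C it rose (0.60 ± 0.10, adjusted p = 0.00022) and within set B it fell (-1.11 ± 0.11, adjusted p = 9.3e-07), and knockout cells gave 0.29 (adjusted p = 0.049) and -1.42 (adjusted p = 0.0016), beside pooled values of -0.05 and -0.30. Mdm2 fell within set B in both genotypes, by -0.65 ± 0.11 in wild type (adjusted p = 0.00018) and -0.61 in knockout (adjusted p = 0.0087), but not within set C (0.04, adjusted p = 0.71, and -0.21, adjusted p = 0.13). Sesn1 in wild type fell in set B (-0.54 ± 0.10, adjusted p = 0.00054) and rose in set C (0.46 ± 0.12, adjusted p = 0.0070). What separates the sets is not given in the labels beyond their numbers. Cdkn1a and Phlda3 were higher at 24 h within both sets in both genotypes, with adjusted p-values of at most 0.021, whereas Zmat3 was called in set C (adjusted p = 0.0028 in wild type and 0.0011 in knockout, against 0.64 and 0.89 in set B), and Aen in wild type rose in set B (0.79, adjusted p = 0.00026) but did not pass in set C (0.11, adjusted p = 0.60). The differences between sets were not tested.

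**Figure D3:**
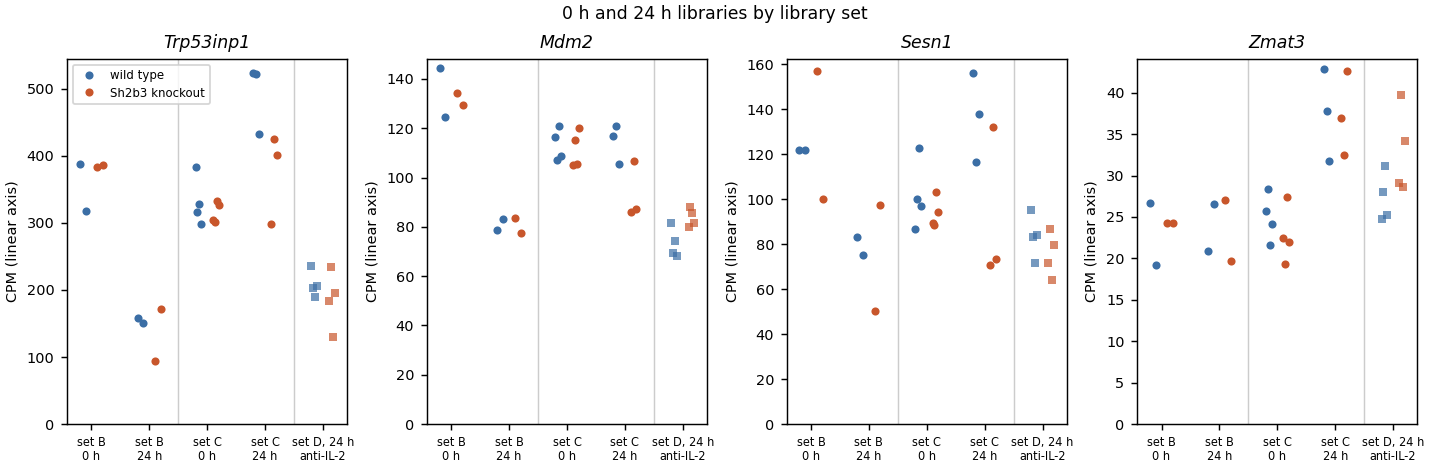
Level of Trp53inp1, Mdm2, Sesn1 and Zmat3 in CPM (y axis) at 0 h and 24 h in library sets B and C, and at 24 h with anti-IL-2 in set D (x axis), with 1 point a library, wild type in blue and knockout in orange. Trp53inp1 at 24 h lies at 151 and 159 CPM in the wild-type libraries of set B and from 433 to 523 CPM in those of set C.

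The comparison of genotypes asked whether the loss of Sh2b3 changed these transcripts. No member was called at any time by the edgeR quasi-likelihood test, where between 0.0306% (6 h) and 0.633% (0 h) of all genes were called: 0.0647% at 2 h, 0.372% at 24 h, and 0.35% where anti-IL-2 was added. At an unadjusted p under 0.05 there were 0 of 8 members at 0 h, where Phlda3 also missed the filter, and 3, 2, 3 and 3 of 9 at the later times, in order of time and with anti-IL-2 last. Of all genes tested, 1337 of 12802 were under that p at 0 h. At 2, 6 and 24 h they were 1623 of 12372, 743 of 13082 and 1512 of 12906, and with anti-IL-2 1274 of 13441. The DESeq2 Wald test called 1 member at 6 h and none at the other 4 points, and limma voom with quality weights called 1 at 6 h and 3 at 24 h. The shares of all genes called by other tools and settings are not given. The edgeR shares are not a background for their counts, here or below. In unstimulated cells the 2 smallest p-values belonged to Mdm2 (-0.08 ± 0.04, adjusted p = 0.58) and Aen (-0.08 ± 0.07, adjusted p = 0.76), and the members' differences ran from -0.10 to 0.21 with a median of -0.05. The highest, that of Cdkn1a, was -0.13 without library 8.

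The smallest p of a member in any genotype comparison was that of Zmat3 at 6 h. The 5 wild-type libraries lay at 87.8 to 109 CPM and the knockout libraries at 58.6, 58.7, 58.97, 63.3 and 86.9 CPM, without overlap, and the top knockout value was library 28. The difference was -0.61 ± 0.12 with an adjusted p of 0.23, not called. Without library 28, singled out after seeing the data, the knockout mean was 59.9 ± 2.29 CPM (SD, n = 4). Leaving out the highest knockout library must lower that mean, and the difference was then -0.73 with an adjusted p of 0.0019. With all libraries it was called by DESeq2 at -0.60 (adjusted p = 0.0053) and by limma voom with quality weights at -0.70 (adjusted p = 0.0043). The genotype difference in the rise from 0 h to 6 h was -0.60 ± 0.17 (adjusted p = 0.63). The fitted differences of the 9 tested members at 6 h ran from -0.61 to -0.01 with a median of -0.21, against 0.00 over all genes. These values depended on library 28. It was the highest knockout library for Zmat3, Cdkn1a, Phlda3, Ccng1 and Aen and the lowest for Sesn1. The direction in which each of these moves without it was therefore fixed in advance, and no conclusion is drawn from the moves. Without it Cdkn1a went from -0.14 to -0.85, Phlda3 from -0.39 to -0.67, Ccng1 from -0.27 to -0.43 and Aen from -0.21 to -0.35, which was also the median. Sesn1 turned from -0.01 to 0.18, and among the members Zmat3 alone was called. With all libraries Zmat3 and Trp53inp1 had no overlap, at a background of 0.527% of genes lower. For Trp53inp1 the wild-type libraries at 709 to 779 CPM stood against 597 to 672 CPM in knockout, a difference of -0.25 ± 0.07 (adjusted p = 0.70).

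At 2 h the 2 smallest p-values belonged to Ccng1 and Trp53inp1. Ccng1 lay at 144 to 186 CPM in wild type and 123 to 139 CPM in knockout, 1 member without overlap at a background of 1.08% (-0.27 ± 0.08, adjusted p = 0.22). Trp53inp1 differed by -0.30 ± 0.09 (adjusted p = 0.24), at 1101 to 1346 CPM and 866 to 1189 CPM, and was called without the filter on low counts (adjusted p = 0.026). Cdkn1a at 2 h was 0.49 ± 0.59 with all libraries and -0.28 without library 18. At 24 h the fitted differences of Aen and Cdkn1a were positive. For Aen this was the other direction than at 2 h (-0.16) and 6 h (-0.21), whereas Cdkn1a with all libraries was positive at 2 h as well. Aen was higher in all 5 knockout libraries, at 65.1 to 88.3 CPM against 38.4 to 63.9 CPM (0.41 ± 0.12, adjusted p = 0.20), 1 member without overlap at a background of 0.682%. Cdkn1a was at 6.73, 11.04, 11.7, 13.9 and 14.7 CPM in knockout, overlapping 2.86 to 10.5 CPM in wild type (0.82 ± 0.25, adjusted p = 0.21). By limma voom these 2 were called higher, with adjusted p-values of 0.017 and 0.027. Without knockout replicate 5 at 24 h, Trp53inp1 was called lower, making 1 member called. In the presence of anti-IL-2, Cdkn1a was again higher in all 4 knockout libraries (8.64, 8.72, 9.93 and 12.6 CPM against 6.73, 7.11, 7.45 and 8.59 CPM), 1 member without overlap at a background of 2.44%, with a difference of 0.42 ± 0.19 and an adjusted p of 0.52. The 2 smallest p-values there were those of Ccng1 (0.23 ± 0.08, adjusted p = 0.34) and Mdm2 (0.19 ± 0.08, adjusted p = 0.45).

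Whether the time course itself differed between genotypes was tested as an interaction. No member was called at 2, 6 or 24 h, where 0%, 0% and 0.14% of 15762 genes were called, with 1 member at an unadjusted p under 0.05 at each time. Of all 15762 genes, 1001, 797 and 1894 were under that p at these times. limma voom called 1 member at 6 h, Zmat3 at -0.66 (adjusted p = 0.045), and DESeq2 none. Without the filter on low counts edgeR called 1 member at each time, Phlda3 at 2 h (-1.45, adjusted p = 0.046), Zmat3 at 6 h (-0.60, adjusted p = 0.042) and Aen at 24 h (0.53, adjusted p = 0.034). With the filter the smallest p-values were those of Phlda3 (-1.45 ± 0.58, adjusted p = 0.67) and Ccng1 (-0.21, adjusted p = 0.86) at 2 h, Zmat3 and Ccng1 (-0.19, adjusted p = 1.0) at 6 h, and Aen (0.53 ± 0.18, adjusted p = 0.23) and Trp53inp1 (-0.30, adjusted p = 0.69) at 24 h. For Phlda3 at 2 h, called in wild type and not in knockout, the call of a difference between genotypes thus rested on leaving out that filter.

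**Figure D4:**
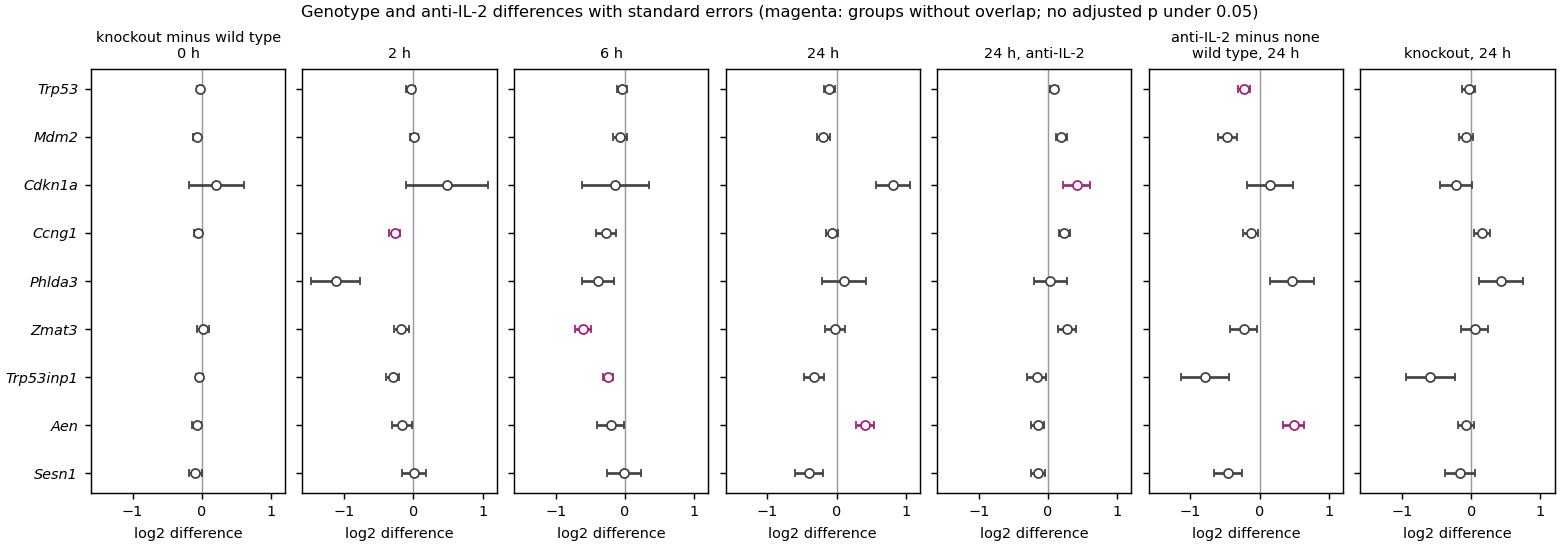
Log2 difference (x axis) of 9 genes between genotypes in 5 conditions and between anti-IL-2 and none in each genotype at 24 h, with standard errors. Magenta marks groups whose libraries do not overlap, and no difference has an adjusted p under 0.05. Zmat3 at 6 h is lower in knockout by 0.61, and Phlda3, drawn from 2 h on, has wide errors.

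Blocking IL-2 for 24 h gave no called member by the edgeR test, where 4.4% of genes were called in wild type and 5.27% in knockout. At an unadjusted p under 0.05 there were 5 of 9 members in wild type and 0 in knockout. Of all genes tested, 2717 of 13273 in wild type and 2667 of 13678 in knockout were under that p. In wild type, Aen lay at 66.2, 79.2, 79.8 and 85.3 CPM with anti-IL-2 and at 38.4 to 63.9 CPM without, with no overlap (0.49 ± 0.15, adjusted p = 0.080). Mdm2 lay at 68.1, 69.4, 74.3 and 81.6 CPM with anti-IL-2 and at 78.6 to 121 CPM without (-0.46 ± 0.14, adjusted p = 0.083). DESeq2 called Mdm2 (-0.48, adjusted p = 0.035), and limma voom called both (adjusted p = 0.029 for Aen and 0.032 for Mdm2), as did edgeR without the filter on low counts (0.036 and 0.049). Aen and Trp53, the latter with 217 to 229 CPM against 240 to 288 CPM (-0.22 ± 0.09, adjusted p = 0.17), were the 2 members without overlap, the first higher and the second lower, at backgrounds of 5.95% higher and 5.32% lower. The wild-type libraries of set B without anti-IL-2, at 78.6 and 83.3 CPM for Mdm2, lay close to the anti-IL-2 range, and leaving out replicate 4 or 5 of the 24 h wild-type group brought Mdm2 to adjusted p-values of 0.025 and 0.030. Leaving out replicate 5 also brought Trp53inp1 to a call, for 2 members lower. That replicate is a set B library, and the direction for Trp53inp1 differed between sets. The anti-IL-2 libraries, at 189 to 235 CPM, lay above those of set B (151 and 159 CPM) and below those of set C (433 to 523 CPM).

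In knockout cells the 2 smallest p-values with anti-IL-2 were those of Trp53inp1 (-0.59 ± 0.36, adjusted p = 0.40) and Ccng1 (0.16 ± 0.12, adjusted p = 0.50), and neither DESeq2 nor limma voom called a member. Trp53inp1 lay at 130 to 235 CPM with anti-IL-2. Without it, the knockout libraries of set C stood at 299 to 424 CPM and those of set B at 94.5 and 172 CPM. The difference between genotypes in the response to anti-IL-2 was called for no member and 0% of 14778 genes, with 2 members at an unadjusted p under 0.05, Aen (-0.57 ± 0.19) and Mdm2 (0.39 ± 0.18), both with an adjusted p of 1.0. Of all 14778 genes, 650 were under that unadjusted p. DESeq2 and limma voom called no member.

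Per length of transcript, the members differed widely in naive wild-type cells. Trp53 was the highest at 61.1 ± 7.32 CPM per kb (SD, n = 11), followed by Trp53inp1 at 49.1 ± 6.01, Ccng1 at 27.5 ± 2.45, Sesn1 at 25.98 ± 3.20 and Mdm2 at 23.2 ± 2.06 CPM per kb. Aen stood at 7.36 ± 1.07 and Zmat3 at 1.97 ± 0.35 CPM per kb, and Cdkn1a and Phlda3 at 0.40 and 0.42 CPM per kb. By 6 h the order had changed: Trp53inp1 was at 114 ± 3.90, Ccng1 at 71.6 ± 8.79, Trp53 at 58.2 ± 1.64, Cdkn1a at 26.8 ± 7.74, Aen at 20.9 ± 2.35 and Phlda3 at 17.8 ± 3.19 CPM per kb (n = 5). Mdm2, far above Cdkn1a in naive cells, was at 24.0 ± 2.48 CPM per kb, and the values of both genes overlapped within their SD.

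The pattern of each transcript over the 10 group means of log2 CPM was compared with 9440 other genes of at least 4 CPM. This is a description over 10 points that share libraries, with no test. The genes most like Trp53 were Tiprl (Pearson r = 0.97), Exoc5 (0.97) and Arpc2 (0.96), those most like Mdm2 were Dennd6a (0.98), Tug1 (0.98) and Plekhm1 (0.98), and those most like Cdkn1a were Lilrb4a (0.97), Lilr4b (0.97) and Lamb3 (0.97). Lilrb4a and Lilr4b are neighbouring paralogs whose reads may be shared. Among the members, Cdkn1a was most like Ccng1 (0.94) and Zmat3 (0.90), and least like Trp53 (0.14) and Mdm2 (0.21). Mdm2 was most like Sesn1 (0.88) and Trp53inp1 (0.85), and Trp53 like Trp53inp1 (0.73).

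The rest of the pathway was read from 6 lists with 67 genes, of which 61 were tested across time. At 2 h in wild type 20 rose and 17 fell (60.7% called, against 53.6% of all genes), at 6 h 24 rose and 17 fell (67.2%, against 49%), and at 24 h 20 rose and 22 fell (68.9%, against 59.4%). The medians of the 61 genes were 0.10, 0.10 and -0.01, so that the pathway as listed moved in both directions. The counts of single lists below, of 5 to 18 genes, stand beside these same shares of all genes, and no list is set apart by them.

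Of 12 apoptosis targets 7 rose and none fell at 6 h in wild type, with a median of 0.81, where 24.9% of all genes rose. Tnfrsf10b, a death receptor for TRAIL, rose by 1.74 ± 0.14 (adjusted p = 9.2e-13), from 12.6 ± 1.95 CPM (SD, n = 11) at 0 h to 40.2 ± 5.31 CPM (n = 5). Bax, which permeabilises the outer mitochondrial membrane, rose by 1.19 ± 0.09 (adjusted p = 1.0e-12), Apaf1, the core of the apoptosome, by 0.97 ± 0.09, and Ei24 by 0.90 ± 0.10. At 2 h 5 of 12 rose and 1 fell, where 26.4% of all genes rose. Fas, the death receptor, rose by 1.58 ± 0.14 (adjusted p = 6.9e-12), Apaf1 by 1.09 ± 0.09 and Tnfrsf10b by 1.27 ± 0.14, whereas Pidd1 fell by 0.81. In knockout 5 of 12 rose and 3 fell at 2 h, with a median of 0.08 (23.9% of all genes rose), and 6 rose and none fell at 6 h (22.8% of all genes rose), with Bax at 1.205 ± 0.14, Tnfrsf10b at 1.53 ± 0.18 and Fas at 1.35 ± 0.17.

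Of 9 cell cycle targets 2 rose and 3 fell at 6 h in wild type, a share near the 49% of all genes called. Gtse1, a microtubule-binding protein that shuttles p53 out of the nucleus, rose by 3.25 ± 0.25 (adjusted p = 8.4e-13), and Gadd45a, a stress protein, fell by 2.49 (adjusted p = 5.1e-10). At 24 h, where 59.4% of all genes were called, 4 rose and 4 fell. Among them were Pcna, the replication clamp, at 1.71 ± 0.13, and Sfn, 14-3-3 sigma, at -1.17 ± 0.12. Of the 5 DNA repair genes 4 fell and none rose at 24 h, where 31.6% of all genes fell and 27.8% rose. Ddb2 fell by 1.18, Xpc by 0.87, Ercc5 by 1.12 and Rrm2b by 0.74. At 6 h, where 49% of all genes were called, Polk, a translesion polymerase, rose by 1.42 ± 0.13 (adjusted p = 4.2e-11) while 3 fell.

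Metabolism and stress targets split: at 6 h in wild type 4 of 8 rose and 3 fell, where 49% of all genes were called and 24.9% rose. Sesn2, the paralog of Sesn1, rose by 1.96 ± 0.22 (adjusted p = 2.5e-09), while Gpx1, a glutathione peroxidase, fell by 0.61 and Ddit4, an mTORC1 inhibitor also known as REDD1, by 0.62. At 2 h the fall of Ddit4 was -2.07 ± 0.18 (adjusted p = 2.9e-11), from 72.0 ± 18.8 CPM to 15.4 ± 1.45 CPM. Of 9 other targets 5 rose and 2 fell at 6 h, beside the same shares of all genes. Slc19a2, a thiamine transporter, rose by 3.07 ± 0.17 (adjusted p = 1.1e-16), from 7.10 ± 1.70 CPM to 68.6 ± 15.2 CPM. Rps27l, a ribosomal protein paralog, rose by 2.19 ± 0.14, and Psrc1, a spindle protein, by 5.38 ± 0.46. Trp53i11 fell by 1.32 at 6 h and by 1.85 at 24 h.

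Regulators of p53 were split, with 5 of 18 higher and 6 lower at 6 h in wild type, where 49% of all genes were called. Hipk2, a kinase that phosphorylates p53, rose by 1.11 ± 0.15, Chek2, a checkpoint kinase, by 1.196 ± 0.20 and Trp53bp1, which binds damaged chromatin, by 0.45 ± 0.09. Rpl5, a ribosomal protein that binds Mdm2, fell by 0.68. At 2 h Atm, the kinase that senses double strand breaks, fell by 1.28 (adjusted p = 4.9e-11), and Cop1, a ubiquitin ligase for p53, rose by 0.69 ± 0.09. By 24 h Mdm4, the partner of Mdm2, had fallen by 1.24 (adjusted p = 8.9e-08), and Chek1 had risen by 3.98 ± 0.33.

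**Figure D5:**
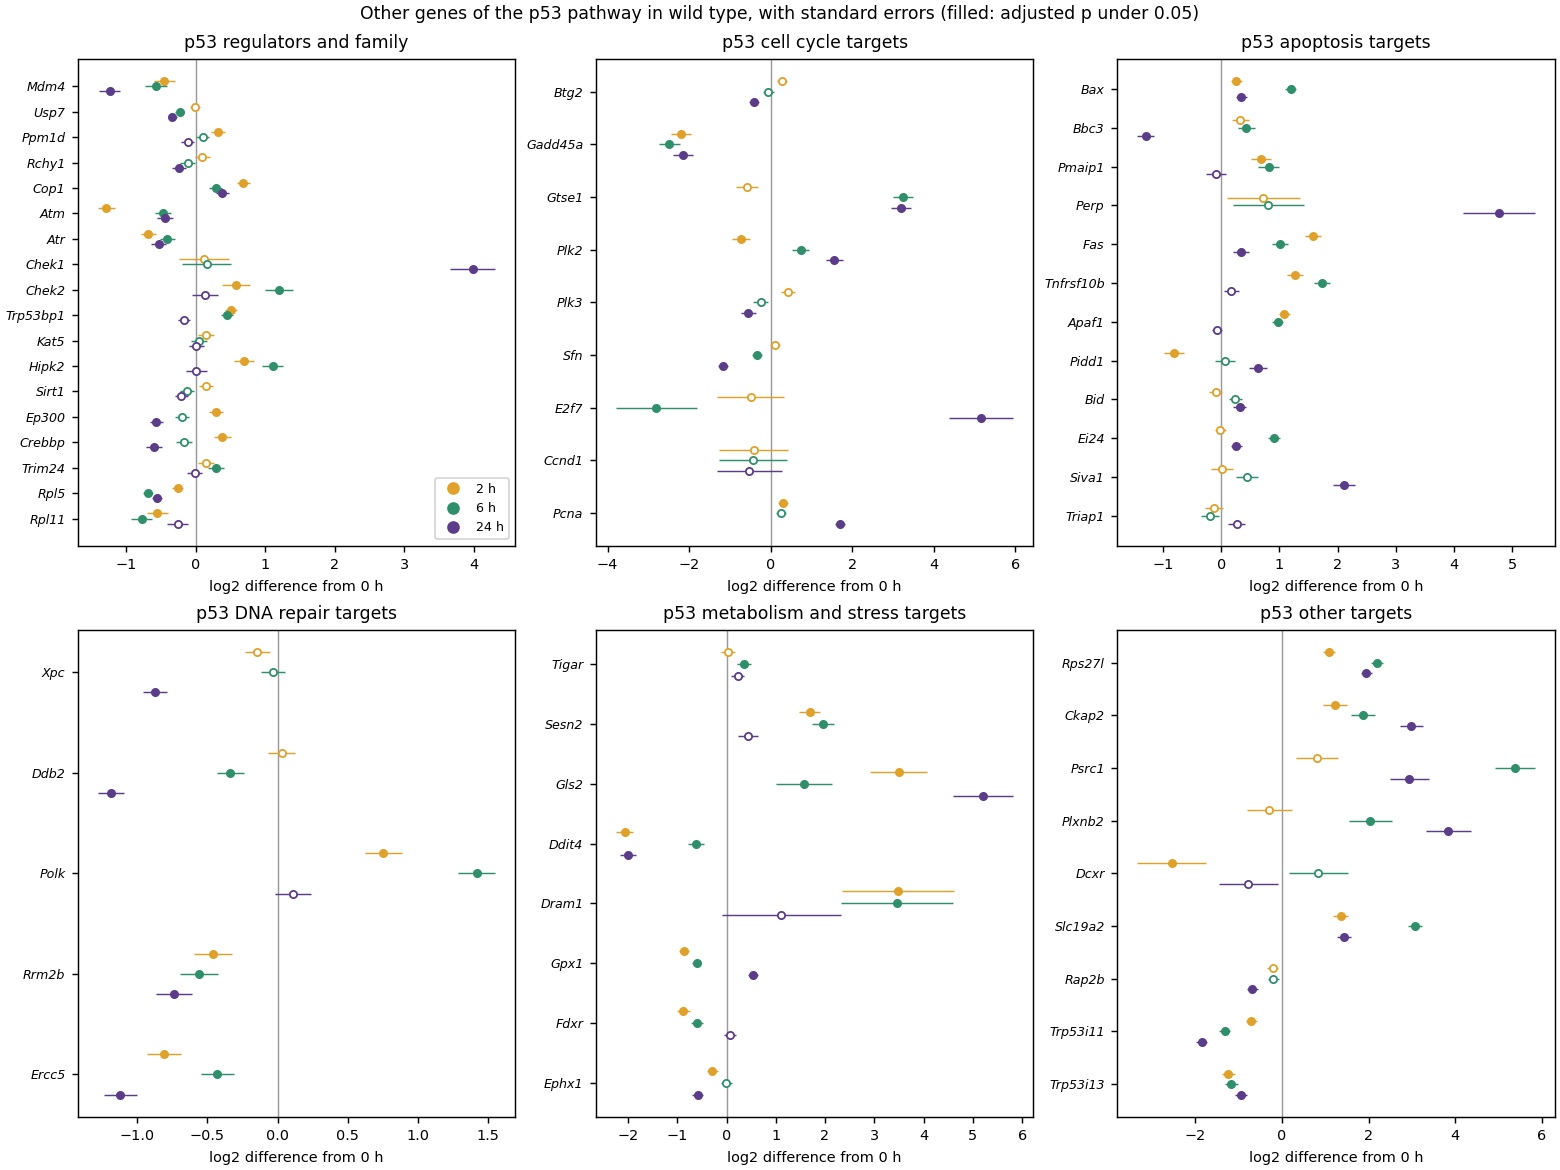
Log2 difference from 0 h (x axis) of the 61 tested genes of 6 lists of the p53 pathway in wild type, at 2 h (yellow), 6 h (green) and 24 h (purple), with standard errors. Filled points have an adjusted p under 0.05. Apoptosis targets lie mostly to the right at 6 h, where 7 of 12 rose and none fell and 24.9% of all genes rose. DNA repair targets lie mostly to the left at 24 h, where 31.6% of all genes fell.

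Between genotypes 1 gene of these lists was called. Ephx1, an epoxide hydrolase, was lower in knockout at 24 h by -0.83 ± 0.16 (adjusted p = 0.034), at 29.7 ± 5.04 CPM against 52.9 ± 12.0 CPM (SD, n = 5 each). Anti-IL-2 moved 6 of 59 tested genes in wild type (10.2%, against 4.4% of all genes) and 7 of 59 in knockout (11.9%, against 5.27%). Hipk2 was higher with anti-IL-2, at 33.8 ± 2.11 CPM (n = 4) against 14.3 ± 3.17 CPM (n = 5) in wild type (1.24 ± 0.17, adjusted p = 0.0032) and by 1.03 ± 0.15 in knockout (adjusted p = 0.0016). Atm was higher by 0.99 ± 0.17 and 0.94 ± 0.11, Trp53bp1 by 0.61 ± 0.13 and 0.77 ± 0.10, and Ddit4 by 0.81 ± 0.15 and 0.78 ± 0.17. Sfn was lower, at -0.96 ± 0.18 and -0.99 ± 0.20, as was Trp53i11, at -0.73 ± 0.15 and -0.83 ± 0.17, and Rpl11 was lower in knockout (-0.46 ± 0.11, adjusted p = 0.026). All of these share the limit that the anti-IL-2 libraries are a set of their own.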

How the data were processed

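The authors deposited raw read counts per gene for 60 libraries of bulk mRNA sequencing, with 55414 genes. Per the submitters' processing notes, FastQC 0.119.9, STAR 2.7.9a, SAMtools, Picard 2.42.2, Subread and featureCounts 2.0.1 were used with GRCm39, with no role or order given; strand setting and annotation release are not given in the sources used here. Names came from GENCODE M21 (52081 genes, 99.6% of counts). M21 is on GRCm38, so it gave no coordinates for counted genes, and its exon lengths served for CPM per kb only. Promoter windows are RefSeq's on GRCm38.p6.

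Genes were filtered with filterByExpr (minimum count 10) per comparison, scaled by TMM and tested with edgeR 4.0.16 quasi-likelihood tests in R 4.3.3, adjusting p-values by Benjamini-Hochberg across the whole tested table, with a threshold of 0.05. Library set was a term in the 0 h, 24 h and time fits. Time fits held 1 genotype each, and genotype fits at 1 time held both. There were 19 comparisons. Alternatives were DESeq2 1.42.0 size factors and Wald test, limma 3.58.1 voom with quality weights, no filter, no set term, single sets, a block on library numbers and each replicate left out. Leaving out knockout libraries 8, 18 and 28 was chosen after seeing the data. The scripts were tested on simulated data. Knockout libraries of set A whose numbers are 10 apart deviated together from their group means (correlations of 0.10 to 0.59 between 0 h and 2 h and 0.22 to 0.73 between 2 h and 6 h, but down to 0.06 between 0 h and 6 h), so values with that block stand beside knockout results whose call it changed; the pairing comes from the numbers and the data, and the labels do not state it. No 2 libraries of a group agreed within sampling noise.

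Members and lists were chosen with earlier results of these data known. Named were all members in every group, the called members of each comparison or, with none, the 2 smallest p-values, up to 4 genes of each other list per comparison, and the 3 genes most like Trp53, Mdm2 and Cdkn1a.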

Additional observations from a re-analysis of the deposited data

Results flagged for a closer look

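Of 72 groups of 4 or 5 libraries and members examined, 4 had a highest or lowest library far from the others by Dixon's test, where chance gives about 1 in 20. Ccng1 in knockout cells at 24 h with anti-IL-2 was low in replicate 3, at 118.8 CPM, where the next library was at 141 CPM. Phlda3 in knockout cells at 24 h was high in replicate 1, at 10.01 CPM against 5.07 CPM for the next. Zmat3 in knockout cells at 6 h was high in replicate 3, library 28, at 86.9 CPM against 63.3 CPM. Aen in wild-type cells at 2 h was high in replicate 3, at 66.6 CPM against 51.2 CPM.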

How the results depend on the processing

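With DESeq2 size factors, all 74 results for single members and all 38 counts of called members kept their direction and their side of the threshold. The counts moved by over 1.5 times, or from or to 0, as follows. Without the filter on low counts, 1 member was called lower between genotypes at 2 h (Trp53inp1), 6 h (Zmat3) and 24 h (Sesn1), 1 higher and 1 lower with anti-IL-2 in wild type, and 1 lower, 1 lower and 1 higher in the genotype by time test at 2, 6 and 24 h. The DESeq2 Wald test called 1 lower at 6 h and 1 lower with anti-IL-2 in wild type. By limma voom 1 was lower at 6 h, 2 higher and 1 lower at 24 h, 1 higher and 1 lower with anti-IL-2 in wild type, and 1 lower in the genotype by time test at 6 h. Smaller moves by limma voom were 7 higher at 2 h and 8 at 6 h in knockout (6 each by edgeR) and 4 at 24 h in wild type (5 by edgeR). The cause was not tested. Between 24 h and 0 h in wild type, set B alone gave 3 lower and set C 0, and in knockout set B gave 3 higher and 2 lower and set C 0 lower. Leaving out 1 replicate gave 0 to 1 lower between genotypes at 6 h and at 24 h, 0 to 2 lower with anti-IL-2 in wild type, 0 to 1 lower at 24 h against 0 h in wild type, and 1 to 2 lower from 6 h against 2 h in knockout. That last count was 1 without the knockout libraries 8, 18 and 28, without the filter and without the set term. Without those libraries, 1 was lower between genotypes at 6 h. The sign turned in 2 results: Aen between genotypes at 0 h was 0.085 in set B alone, and Mdm2 at 24 h in wild type 0.044 in set C alone.

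The labels share no replicate numbers. With a replicate block on library numbers 10 apart in set A, all 40 results called with all libraries kept their call, and no count moved by over 1.5 times. Members called higher at 6 h against 0 h went from 7 to 8 in wild type (Trp53, adjusted p = 0.0498) and from 6 to 9 in knockout (Trp53, Mdm2 and Sesn1), at 2 h in knockout from 6 to 7 (Sesn1), and from 2 h to 6 h in knockout from 4 to 5 (Cdkn1a). In wild type the correlations of libraries 10 apart were all positive between 0 h and 2 h (0.06 to 0.26) and of both signs between the other times (-0.12 to 0.27). Depth limited Eda2r, at most 6 reads, and Cdkn1a and Phlda3 in unstimulated cells.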
